A study of Mus musculus with 14 samples.

Results

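The genes described here make the galactolipids of myelin and the sphingolipid backbone on which they are built. The set was given as a list of gene names, with no measured value in its rule, but it was chosen with earlier results of these data known. It holds 8 of the 23427 genes in the table: Sptlc1, Sptlc2, Degs1, Cers2, Fa2h, Ugt8a, Gal3st1 and Ugcg. Cers2 is listed in the table under its older symbol, Lass2. All 8 passed the filter on low values (2 or more libraries of the fit with an FPKM of 1 or above) with both fits, of the 12 Day3 libraries and of all 14. FPKM is the number of sequenced fragments per kb of exon, scaled to the depth of the library, so that levels can be compared between genes.

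Myelin is unusually rich in galactosylceramide and in its sulfated form, sulfatide, and these lipids are classic markers of oligodendrocytes (OLs). Their synthesis begins in the endoplasmic reticulum, where serine palmitoyltransferase joins serine to a fatty acyl chain. Ceramide synthases then add a second acyl chain, and a desaturase turns dihydroceramide into ceramide. Ceramide is a branch point. Galactose gives galactosylceramide, glucose gives glucosylceramide (the base of the gangliosides), and phosphocholine gives sphingomyelin.

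Primary oligodendrocyte precursor cells (OPCs) of wild-type C57BL/6J mice were isolated from the cortex of P7 pups by immunopanning with an antibody against the receptor Pdgfra, and differentiated in culture by removing the growth factor PDGF-AA and adding the thyroid hormone T3. Poly(A) RNA was sequenced in 14 libraries, in 7 groups of 2: Day0 cells, and cells at Day3 that were non-treated, mock-transfected, given NC siRNA #1 or NC siRNA #2 (negative controls with no target), transfected with an siRNA against Secisbp2l (siSbp2l) or with an siRNA against Pdgfra (siPdgfra). An siRNA lowers the mRNA that it matches. RNA was taken from whole cultures, so cells that took up no siRNA are included, and 1 siRNA group was sequenced per target. The replicates are described as independent, but with 2 libraries per group the spread rests on few values.

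Libraries had 6560804 to 31621326 fragments, and the 8 genes had between 58 fragments (Fa2h at Day0) and 38697 fragments (Ugt8a) in a library. Both targets were low in their own knockdown, Secisbp2l at 3.91 and 3.82 FPKM in siSbp2l and Pdgfra at 3.30 and 2.69 FPKM in siPdgfra. The 2 non-treated libraries stood apart from each other. The SD of their log2 difference across genes was 0.457, against at least 0.148 and at most 0.2 in the other groups, and the difference followed the GC content of the transcripts (Spearman rho across genes of 0.77, where genes are not independent replicates). The smaller replicate differences of Day0 (SD 0.182) and NC siRNA #1 (SD 0.148) also followed GC content, with a rho of 0.52 and -0.45. In the remaining groups rho was -0.06 to 0.21. Among the 8 genes, Ugt8a has the lowest transcript GC content (40.2%) and Gal3st1 the highest (59.5%), so values that rest on the non-treated group are given here with and without it where that matters. Markers of the OL lineage (Olig1, Olig2, Sox10 and Nkx2-2) were present in all libraries, with a summed FPKM of 604 to 1700.0. Summed markers of other cells lay at 11.1 to 104.5 FPKM for astrocytes (6 genes, with Gjb6 at 0 in all groups), 2.62 to 16.3 for neurons (6 genes), 0.525 to 9.46 for microglia (6 genes, with 5 or 6 under 1 FPKM), and no more than 0.201 for endothelial cells (4 genes) and 0.190 for fibroblasts and pericytes (5 genes).

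Promoter sequences are shown for 4 members that lie at the ceramide branch point or next to it, because 3 of them, Ugt8a, Gal3st1 and Cers2, were lower together in siSbp2l while Ugcg was not. Each is the 250 bases before the annotated start in RefSeq (GRCm38.p6, the same coordinates as mm10), written from 5′ to 3′ on the strand of the gene. Capitals mark exact matches on either strand to any of 5 short motifs. The letters GGGCGG were searched for the GC box that Sp1-type factors bind. The letters CCAAT were searched for the box that carries that name. For one form of the E-box the search was for CACGTG. For factors of the SOX family it was for ACAAAG, without flanking letters. For factors of the TCF/LEF family it was for ATCAAAG, a longer word. Matches that overlap were each counted, as for 2 of the GC boxes of Ugt8a. The windows are those of Ugt8a (chr3:125938653-125938902, minus strand), Gal3st1 (chr11:3983386-3983635, plus strand, the first of 3 starts), Cers2 (chr3:95314940-95315189, plus strand, the first of 2 starts) and Ugcg (chr4:59189300-59189549, plus strand).
Ugt8a: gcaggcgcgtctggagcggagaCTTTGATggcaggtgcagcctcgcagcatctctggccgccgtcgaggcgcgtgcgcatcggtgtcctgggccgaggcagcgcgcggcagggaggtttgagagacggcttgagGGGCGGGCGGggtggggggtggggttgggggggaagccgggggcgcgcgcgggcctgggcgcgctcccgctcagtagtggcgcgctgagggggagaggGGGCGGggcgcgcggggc
Gal3st1: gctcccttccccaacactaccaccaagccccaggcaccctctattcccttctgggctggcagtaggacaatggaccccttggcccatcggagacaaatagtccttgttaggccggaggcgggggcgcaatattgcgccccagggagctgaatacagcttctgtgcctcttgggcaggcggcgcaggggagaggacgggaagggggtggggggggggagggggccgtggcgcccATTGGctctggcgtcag
Cers2: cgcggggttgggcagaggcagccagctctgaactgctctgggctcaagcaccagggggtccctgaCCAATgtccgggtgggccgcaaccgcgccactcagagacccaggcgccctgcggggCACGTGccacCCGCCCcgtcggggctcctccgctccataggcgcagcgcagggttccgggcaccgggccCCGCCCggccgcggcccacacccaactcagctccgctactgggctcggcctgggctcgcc
Ugcg: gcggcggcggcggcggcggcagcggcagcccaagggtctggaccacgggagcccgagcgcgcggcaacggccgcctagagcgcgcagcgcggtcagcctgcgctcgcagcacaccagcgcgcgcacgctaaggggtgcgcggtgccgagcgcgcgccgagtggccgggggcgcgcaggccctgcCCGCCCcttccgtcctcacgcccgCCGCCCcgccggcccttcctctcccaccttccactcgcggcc

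The window of Ugt8a held 3 GC boxes and 1 TCF/LEF match, which began at base -228 (base -1 is the last before the start). That of Ugcg held 2 GC boxes, that of Cers2 held 2 GC boxes, 1 CCAAT box and 1 E-box, and that of Gal3st1 held 1 CCAAT box. Of 32817 promoter windows of the same length, 32.7% held a GC box, 33.8% a CCAAT box, 6.0% the E-box, 16.5% the SOX motif and 3.2% the TCF/LEF motif. Windows were found for 7 of the 8 members, and Ugt8a was alone among them in holding the TCF/LEF letters. All 4 windows shown were richer in G and C (65.6% to 80.4%) than the median window (52.4%). These matches describe the letters of the windows and no binding was measured.

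The levels are taken roughly in the order of the pathway, starting with serine palmitoyltransferase. Degs1 is given before Cers2, although ceramide synthases act before the desaturase. Sptlc1 (chromosome 13, minus strand, 53332748 to 53377361 in mm10), its non-catalytic subunit, was the most even of the 8 genes. Its FPKM was 31.04 and 28.95 at Day0, 33.1 and 32.9 in non-treated, 29.8 and 30.9 in mock, 26.0 and 26.9 in NC siRNA #1, 29.5 and 30.8 in NC siRNA #2, 25.3 and 26.9 in siSbp2l, and 20.6 and 20.9 in siPdgfra. Only the 2 siPdgfra libraries lay below all the others.

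Sptlc2 (chromosome 12, minus strand, 87307889 to 87388230), the catalytic subunit, was below Sptlc1 in all 14 libraries. Its FPKM was 10.5 and 11.3 at Day0, 13.3 and 18.4 in non-treated, 14.6 and 15.5 in mock, 21.5 and 20.2 in NC siRNA #1, 19.2 and 21.3 in NC siRNA #2, 14.9 and 14.3 in siSbp2l, and 13.13 and 13.14 in siPdgfra. The order of groups ran from both NC siRNAs down to Day0, and non-treated, mock and siSbp2l, which are neighbours in it, overlapped.

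Degs1 (chromosome 1, minus strand, 182275770 to 182282759) encodes the desaturase that makes ceramide from dihydroceramide. Its FPKM was 42.8 and 38.4 at Day0, 150.2 and 169.8 in non-treated, 126 and 135 in mock, 105 and 102 in NC siRNA #1, 119 and 119 in NC siRNA #2, 50.7 and 58.9 in siSbp2l, and 80.2 and 65.5 in siPdgfra. No neighbouring groups overlapped in its order, which was non-treated, mock, NC siRNA #2, NC siRNA #1, siPdgfra, siSbp2l and Day0.

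Cers2 (chromosome 3, plus strand, 95315252 to 95323568) encodes the ceramide synthase for the very long acyl chains that are typical of myelin lipids. Its FPKM was 105 and 83.5 at Day0, 129 and 117 in non-treated, 127 and 133 in mock, 248 and 242 in NC siRNA #1, 138 and 134 in NC siRNA #2, 84.0 and 96.5 in siSbp2l, and 195 and 159 in siPdgfra. The siSbp2l and Day0 libraries overlapped at the bottom of the order, and NC siRNA #1 stood above every other library.

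Fa2h (chromosome 8, minus strand, 111345138 to 111393821) encodes the fatty acid 2-hydroxylase, which supplies the hydroxylated chains of myelin galactolipids. It had the widest range of the 8 genes. Its FPKM was 1.56 and 1.03 at Day0, 61.1 and 46.1 in non-treated, 53.2 and 56.6 in mock, 54.0 and 61.7 in NC siRNA #1, 71.9 and 74.0 in NC siRNA #2, 10.8 and 13.6 in siSbp2l, and 47.8 and 41.0 in siPdgfra. Both siSbp2l libraries lay between Day0 and all other Day3 libraries.

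Ugt8a (chromosome 3, minus strand, 125865343 to 125938550) encodes the galactosyltransferase that turns ceramide into galactosylceramide. It was the highest of the 8 genes in all 12 Day3 libraries, where Cers2 had been the highest at Day0. Its FPKM was 60.72 and 60.58 at Day0, 319.8 and 503.5 in non-treated, 308 and 309 in mock, 312 and 297 in NC siRNA #1, 305 and 318 in NC siRNA #2, 158.5 and 177 in siSbp2l, and 255 and 221 in siPdgfra. At its highest it ranked as gene 40 of all genes in a library, and at Day0 its lowest rank was 1324. The order was non-treated, the other 3 controls (which overlapped), siPdgfra, siSbp2l and Day0.

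Gal3st1 (chromosome 11, plus strand, 3983636 to 3999328) encodes the sulfotransferase that makes sulfatide from galactosylceramide. Its FPKM was 15.3 and 12.2 at Day0, 54.3 and 25.2 in non-treated, 49.3 and 51.5 in mock, 65.7 and 75.1 in NC siRNA #1, 39.6 and 39.5 in NC siRNA #2, 21.8 and 22.0 in siSbp2l, and 65.2 and 54.5 in siPdgfra. Only Day0 lay below siSbp2l, and the siPdgfra libraries lay within the range of the controls.

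Ugcg (chromosome 4, plus strand, 59189550 to 59222833) encodes the glucosyltransferase that takes ceramide into the ganglioside branch. Its FPKM was 32.8 and 30.3 at Day0, 15.7 and 22.0 in non-treated, 15.2 and 15.3 in mock, 8.61 and 9.20 in NC siRNA #1, 17.02 and 19.18 in NC siRNA #2, 19.8 and 22.0 in siSbp2l, and 24.4 and 22.8 in siPdgfra. It was the only one of the 8 genes with its highest group mean at Day0, and siSbp2l, non-treated and NC siRNA #2 were neighbours that overlapped.

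**Figure D1:**
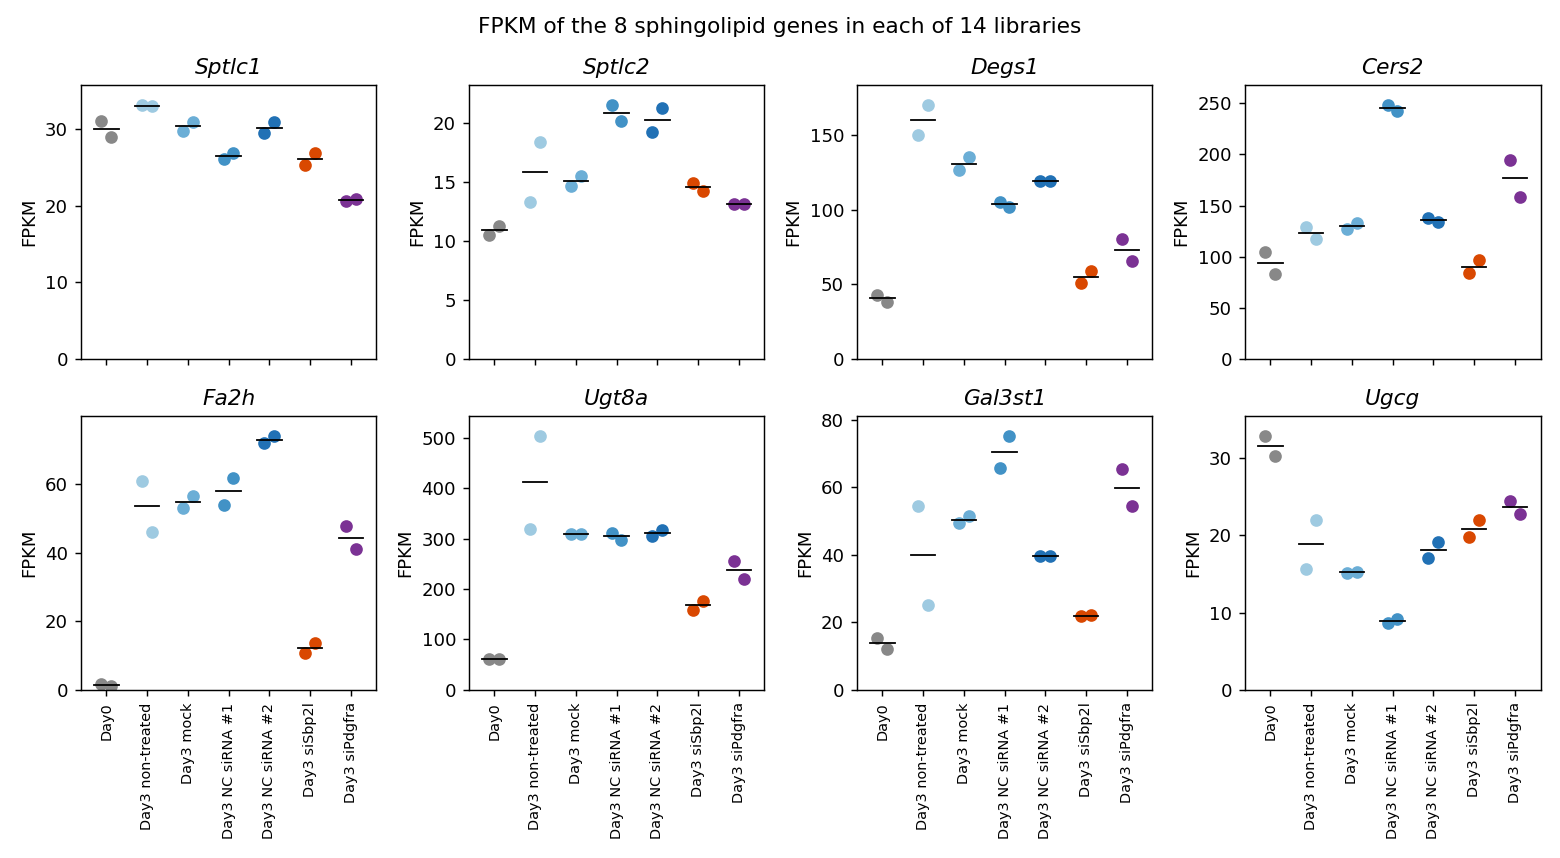
FPKM of each gene (vertical axes, linear, from 0) in the 14 libraries by group (horizontal axes). Points are the 2 libraries of a group and lines their mean. Fa2h, Ugt8a and Degs1 are lowest at Day0 and next lowest in siSbp2l, and Ugcg is highest at Day0.

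Differentiation was examined by comparing Day3 non-treated with Day0. The galactolipid genes rose steeply. Fa2h was 41.3-fold higher by mean FPKM, Ugt8a 6.79-fold, Degs1 3.94-fold and Gal3st1 2.90-fold, while Ugcg was 1.67-fold higher at Day0. On the log2(FPKM + 1) scale, on which limma was fitted and which understates the change of low genes, the differences were 4.57 (SE 0.16, adjusted p = 1.08e-09) for Fa2h, 2.71 (SE 0.17, adjusted p = 1.03e-07) for Ugt8a, 1.95 (SE 0.12, adjusted p = 7.25e-08) for Degs1 and 1.38 (SE 0.26, adjusted p = 0.000666) for Gal3st1. Adjusted p-values are over all genes tested. Smaller rises passed the same test for Sptlc2 (0.49, SE 0.13, adjusted p = 0.00557) and Cers2 (0.39, SE 0.13, adjusted p = 0.0221), and Ugcg fell by 0.73 (SE 0.14, adjusted p = 0.000631). The call for Cers2 was lost without Day0 replicate 2 (0.23, adjusted p = 0.21) and without non-treated replicate 1 (0.32, adjusted p = 0.0586), and those for Cers2 and Sptlc2 when only these 4 libraries were fitted (adjusted p = 0.157 and 0.113). Sptlc1 did not pass (0.13, 95% interval -0.04 to 0.31, adjusted p = 0.159).

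Hence 6 of the 8 genes were higher and 1 was lower at an adjusted p under 0.05, where 28.4% of the 11874 genes tested were higher and 38.6% lower. With a change of at least 2-fold added, as the study required for its differentially expressed genes (DEGs), 4 of the 8 were higher, against 11.4% of all genes. The median of the 8 was 0.93 and that of all genes was -0.12. The non-treated libraries decide the size for Gal3st1, whose difference was 0.84 without non-treated replicate 1 and 1.92 without replicate 2, both past the test. With mock in place of non-treated, the difference was 1.81 for Gal3st1, 4.61 for Fa2h, 2.33 for Ugt8a and 1.66 for Degs1, and Ugcg fell by 1.00. All 14 libraries belong to the knockdown series, for which the methods name a single instrument.

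The role of Secisbp2l was addressed by comparing siSbp2l with the 4 Day3 control groups, each given equal weight. The genes of the galactolipid route were lower in siSbp2l. Fa2h was at 20.4% of the mean of the 4 controls, Degs1 at 42.7%, Gal3st1 at 43.8%, Ugt8a at 50.2% and Cers2 at 56.9%. Ugcg stood at 137% of the controls. In bulk samples, fewer cells of a type and less RNA per cell cannot be told apart.

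In the limma fit of the 12 Day3 libraries, the difference from the mean of the controls was -2.20 (SE 0.12, adjusted p = 6e-07) for Fa2h, -1.20 (SE 0.10, adjusted p = 6.18e-06) for Degs1, -1.09 (SE 0.21, adjusted p = 0.00169) for Gal3st1, -0.97 (SE 0.14, adjusted p = 0.000333) for Ugt8a and -0.75 (SE 0.10, adjusted p = 0.000119) for Cers2. Sptlc1 was slightly lower (-0.19, SE 0.07, adjusted p = 0.0338), and this call was lost when any 1 mock, NC siRNA or siSbp2l library was left out (adjusted p = 0.0524 to 0.274). Sptlc2 did not pass (-0.27, 95% interval -0.50 to -0.03, adjusted p = 0.0547), but it did without the non-treated group (-0.33, adjusted p = 0.0303). Ugcg was higher by 0.48 (SE 0.11, adjusted p = 0.00533). The median of all genes was 0.15 in this comparison, so the difference of Ugcg relative to it was 0.33, and with median-ratio scaling, which brings that median to 0.001, Ugcg was 0.32 higher and did not pass (adjusted p = 0.0644). It did not pass without siSbp2l replicate 2 either (0.41, adjusted p = 0.077).

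In all, 6 of the 8 genes were lower and 1 was higher, where 17.9% of the 11650 genes tested were lower and 35.5% higher. Over all genes the split was 4135 higher and 2091 lower as deposited, and 2621 higher and 2860 lower with median-ratio scaling. With the 2-fold threshold, 3 of the 8 (Fa2h, Degs1 and Gal3st1) were lower, against 4.08% of all genes. Ugt8a, at -0.97, was just short of that threshold and passed it with either other scaling, with the GC trend removed or without non-treated replicate 1 or siSbp2l replicate 2, where the values were -1.14 to -1.01. The median of the 8 was -0.86. For 5 genes, Fa2h, Degs1, Gal3st1, Ugt8a and Cers2, both siSbp2l libraries lay below all 8 control libraries, as they did for 13.5% of all genes.

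**Figure D2:**
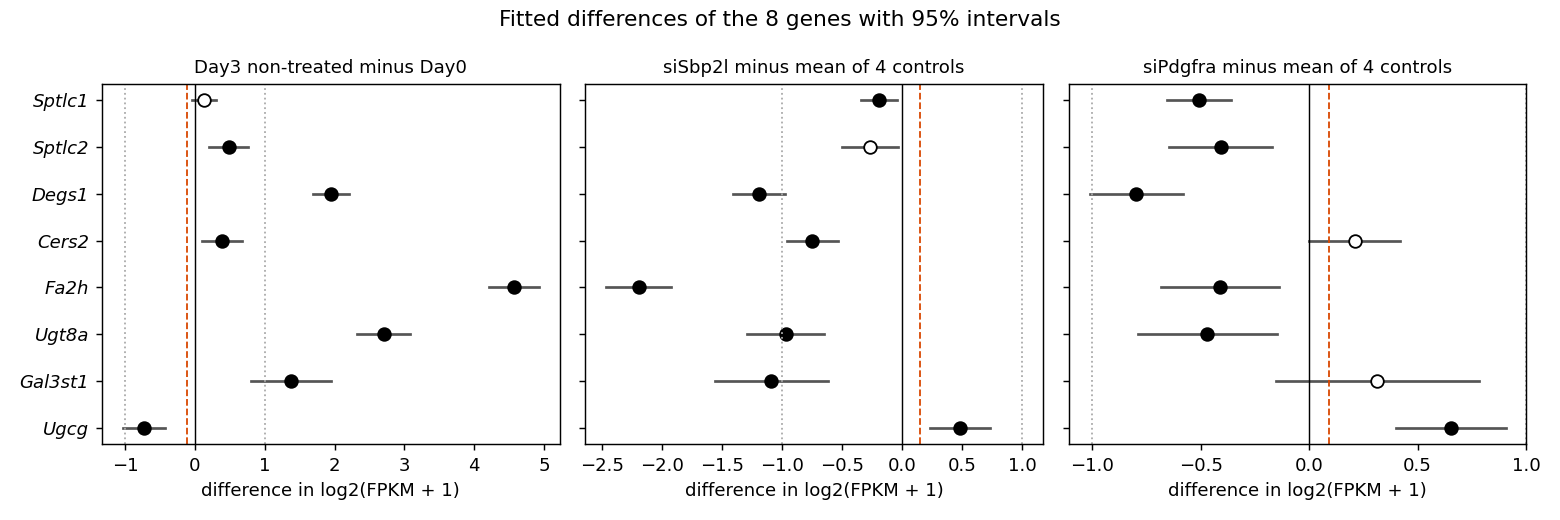
Fitted differences in log2(FPKM + 1) (horizontal axes) of the 8 genes, with 95% intervals, for 3 comparisons. Filled points have an adjusted p under 0.05, the dashed line is the median of all genes and dotted lines mark 2-fold. In siSbp2l all genes but Ugcg lie to the left of the median, with Fa2h farthest.

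The controls were not equal, so each was also used alone. The same 5 genes passed the test against each of the 4 controls, as 7.94% of all genes did in the lower direction. Fa2h was the only one of them past 2-fold against all 4, with differences of -2.04 for non-treated as the reference, -2.09 for mock, -2.16 for NC siRNA #1 and -2.49 for NC siRNA #2. Ugt8a differed by -1.26, -0.88, -0.86 and -0.89 in that order, and Degs1 by -1.53, -1.24, -0.91 and -1.11. Cers2 and Gal3st1 depended more on the control. Cers2 differed by -0.44 against non-treated but by -1.44 against NC siRNA #1, and Gal3st1 by -0.73 and -1.64. Ugcg was 1.14 higher against NC siRNA #1 (adjusted p = 0.00016) and 0.43 higher against mock (adjusted p = 0.0352), but did not pass against non-treated (0.16, adjusted p = 0.39) or NC siRNA #2 (0.20, adjusted p = 0.301).

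Against Day0, siSbp2l cells still carried part of the rise. Fa2h was 2.52 higher (SE 0.16, adjusted p = 1.43e-07) and Ugt8a 1.45 higher (SE 0.17, adjusted p = 2.17e-05), and both passed 2-fold. Degs1 (0.42, adjusted p = 0.00907), Sptlc2 (0.39, adjusted p = 0.0187) and Gal3st1 (0.64, adjusted p = 0.0477) were also higher, and Ugcg fell by 0.58 (adjusted p = 0.00332). Cers2 did not differ from Day0 by this test (-0.05, 95% interval -0.34 to 0.24, adjusted p = 0.734). Thus 5 of the 8 were higher and 1 was lower, where 36.4% of all genes were higher and 29.0% lower, and 2 of the 8 were higher by 2-fold, against 12.1%. Of the log2 distance between Day0 and the mean of the controls, siSbp2l cells had covered 59.9% for Ugt8a, 53.5% for Fa2h, 37.1% for Gal3st1 and 26.0% for Degs1, and for Cers2 they lay 7.73% of that distance below Day0 (-7.73%). The count of 6 genes past the test became 3 without siSbp2l replicate 2. The call for Gal3st1 was lost without any 1 of the 4 libraries (adjusted p = 0.0598 to 0.223), that for Sptlc2 without Day0 replicate 1 or either siSbp2l library (adjusted p = 0.0532 to 0.0988), and that for Degs1 without replicate 2 of Day0 or of siSbp2l (adjusted p = 0.0768 and 0.0909).

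Markers of mature cells moved in the same direction. The summed FPKM of 3 OL genes (Mbp, Cnp and Mag) was 1081 to 1180.0 in siSbp2l, 1908 to 3493 in the controls and 202 to 226 at Day0, and that of 2 precursor genes (Pdgfra and Cspg4) was 147 to 152 in siSbp2l, 33.4 to 73.8 in the controls and 434 to 458 at Day0. Almost all of the precursor sum in siSbp2l was Pdgfra (149.9 and 144.4 FPKM). Cspg4 was at 2.24 and 2.26 there, inside the controls (0.958 to 2.81) and below Day0 (25.6 and 21.8). The summed astrocyte markers in siSbp2l (68.8 to 69.3) lay within the range of the controls (56.6 to 104.5), as did those of microglia (3.29 to 3.86, against 0.768 to 9.46). Gfap and Slc1a2, the largest parts of the astrocyte sum, also lay within the controls. Aldh1l1 (2.45 and 2.36 FPKM) was below all controls (3.93 to 7.13), as was Aqp4 at under 1 FPKM. Fgfr3 (3.92 and 3.50) was above all controls (1.31 to 2.71). The 6 neuron markers summed to 8.94 to 9.59 in siSbp2l, above the 2.62 to 4.78 of the controls and below the 14.7 to 16.3 of Day0. Most of this was Syt1, at 4.94 and 5.16 FPKM in siSbp2l, while Slc17a7 was at no more than 0.047. Rbfox3 (1.198 and 1.096) and Gad1 (0.916 and 0.870) were also above all controls (at most 0.599 and 0.6845). Snap25 (0.256 and 0.174) and Nefl (2.24 and 1.59) overlapped the controls. The part of these in the differences of the 8 genes was not tested.

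The siPdgfra cells served as a second knockdown. Here both subunits of serine palmitoyltransferase were lower, along with Degs1, Ugt8a and Fa2h, and Ugcg was higher. Degs1 was at 56.8% of the mean of the 4 controls, Sptlc1 at 69.1%, Ugt8a at 71.2%, Sptlc2 at 73.0% and Fa2h at 74.2%. Gal3st1 was at 120.0%, Cers2 at 111% and Ugcg at 155%.

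The differences in the limma fit were -0.80 (SE 0.10, adjusted p = 8.75e-05) for Degs1, -0.51 (SE 0.07, adjusted p = 0.000134) for Sptlc1, -0.47 (SE 0.14, adjusted p = 0.0187) for Ugt8a, -0.41 (SE 0.11, adjusted p = 0.00829) for Sptlc2 and -0.41 (SE 0.12, adjusted p = 0.0163) for Fa2h. Ugcg was 0.65 higher (SE 0.11, adjusted p = 0.000871). Gal3st1 (0.31, 95% interval -0.15 to 0.78, adjusted p = 0.226) and Cers2 (0.21, 95% interval -0.003 to 0.42, adjusted p = 0.0864) did not pass. The call for Ugt8a was lost without the non-treated group (-0.38, adjusted p = 0.0554) and without siPdgfra replicate 2 (-0.37, adjusted p = 0.174), as was that for Fa2h without that library (-0.30, adjusted p = 0.178). The call for Sptlc2 was lost without either siPdgfra library (adjusted p = 0.061 and 0.0618).

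So 5 of the 8 were lower and 1 was higher, where 23.0% of the 11650 genes tested were lower and 32.4% higher. None of the 8 was both past the test and past 2-fold, as 7.99% of all genes were in either direction. Both siPdgfra libraries lay below all 8 control libraries for Sptlc1, Sptlc2, Degs1 and Ugt8a, as for 17.5% of all genes, and above all 8 for Ugcg, as for 26.5%. Against single controls, 2 of the 8, Sptlc1 and Degs1, were lower in all 4 comparisons, as were 9.79% of all genes. In the same limma fit, Fa2h passed against NC siRNA #2 only (-0.71, adjusted p = 0.00417) and Ugt8a against non-treated only (-0.76, adjusted p = 0.00665). Sptlc2 passed against NC siRNA #1 and NC siRNA #2 only (adjusted p = 0.00368 and 0.0053). Ugcg passed against mock and NC siRNA #1 only (adjusted p = 0.00722 and 6.98e-05). The sign of Cers2 depended on the control. It was higher than in non-treated (0.51, adjusted p = 0.00566), mock (0.43, adjusted p = 0.0152) and NC siRNA #2 (0.37, adjusted p = 0.03), and lower than in NC siRNA #1 (-0.48, adjusted p = 0.00883).

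**Figure D3:**
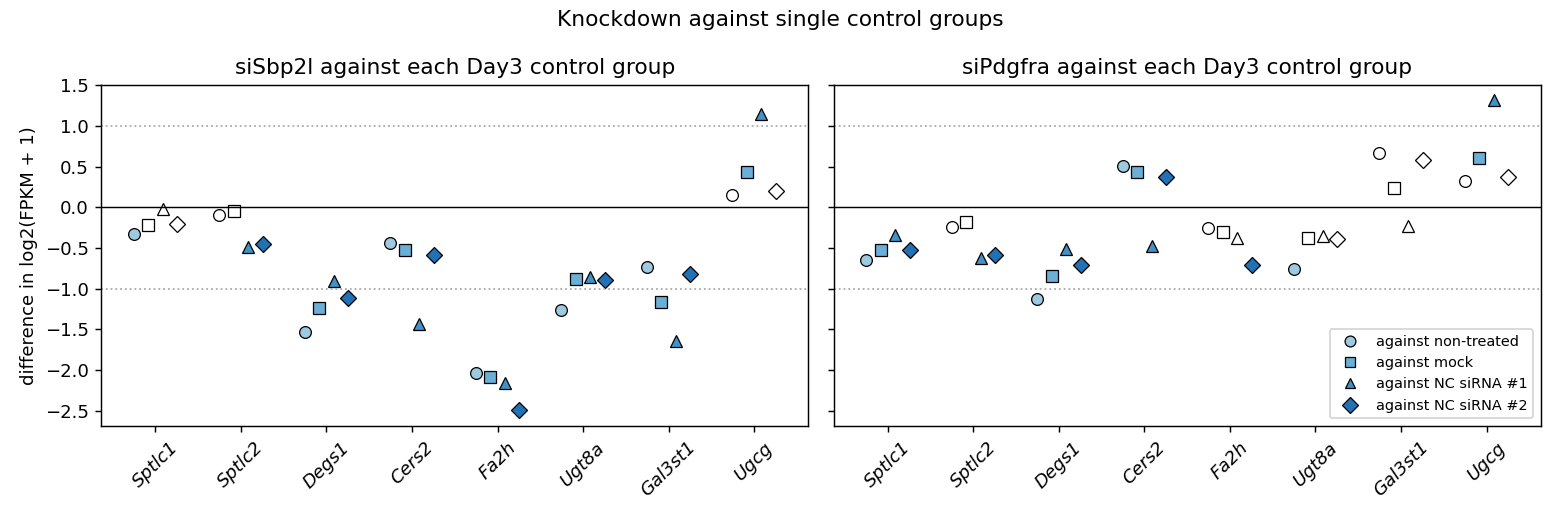
Differences in log2(FPKM + 1) (vertical axes) of siSbp2l (left) and siPdgfra (right) against each Day3 control group, by gene (horizontal axes). Filled symbols have an adjusted p under 0.05. The 4 symbols of Fa2h lie between -2.04 and -2.49 in siSbp2l, and those of Cers2 lie on both sides of 0 in siPdgfra.

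Against Day0, siPdgfra cells were higher in Fa2h (4.31), Gal3st1 (2.05), Ugt8a (1.95), Cers2 (0.90) and Degs1 (0.82), with adjusted p-values of 1.66e-09 to 9.78e-05, and lower in Sptlc1 (-0.51, adjusted p = 0.00015) and Ugcg (-0.40, adjusted p = 0.022). The call for Ugcg was lost without Day0 replicate 1 (adjusted p = 0.115) or siPdgfra replicate 2 (adjusted p = 0.106). These were 5 higher and 2 lower of 8, where 33.7% of all genes were higher and 34.1% lower, and 3 of the 8 were higher by 2-fold, against 13.9%. The 3 OL markers summed to 1824 to 1944 FPKM in siPdgfra, overlapping NC siRNA #2 (1908 to 1913) and below the other controls. The single markers went different ways. Cnp (1108 and 1015 FPKM) and Mag (59.6 and 59.2) were below all control libraries. Mbp (777 and 750) was above NC siRNA #2 (433.5 and 435.5) and within the range of the controls. The astrocyte markers summed to 28.8 to 29.1, below the controls, and the neuron markers to 7.60 to 8.19, above them, again with Syt1 leading (4.49 and 4.95 FPKM). Nefl (1.985 and 2.20) was just above the controls (at most 1.977), and Rbfox3 (0.0932 and 0.1165) was below them (at least 0.1512). Snap25 and Gad1 lay within the controls, and Slc17a7 was at 0. The part of these in the differences was not tested.

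The 2 knockdowns were also compared with each other. The sizes of these differences do not involve the controls. Their SEs, intervals and p-values do, because the fit estimated the spread from the control libraries as well. Fa2h was lower in siSbp2l than in siPdgfra (-1.79, SE 0.15, adjusted p = 9.84e-06) and so was Gal3st1 (-1.41, SE 0.26, adjusted p = 0.00147). Cers2 followed (-0.96, SE 0.12, adjusted p = 0.000107), then Ugt8a (-0.50, SE 0.18, adjusted p = 0.0408) and Degs1 (-0.40, SE 0.12, adjusted p = 0.0198). Sptlc1 was the only gene that was higher in siSbp2l (0.32, SE 0.08, adjusted p = 0.00966). Differences were not detected for Sptlc2 (0.14, 95% interval -0.16 to 0.44, adjusted p = 0.406) and Ugcg (-0.17, 95% interval -0.49 to 0.15, adjusted p = 0.34). That is 5 lower and 1 higher of 8, against 23.4% lower and 28.5% higher of all genes. At 2-fold it is 2 lower, against 6.73%. The call for Ugt8a did not hold when any 1 of the 4 libraries was left out (adjusted p = 0.063 to 0.203), that for Degs1 was lost without replicate 1 of siSbp2l (adjusted p = 0.159) or of siPdgfra (adjusted p = 0.16), and that for Sptlc1 was lost with median-ratio scaling (adjusted p = 0.0548) and without siSbp2l replicate 2 (adjusted p = 0.0828).

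The controls give the background for these differences. Mock and non-treated did not differ in any of the 8 genes at an adjusted p under 0.05 in limma, as 0.215% of all genes did, and 1 gene, Degs1, had an unadjusted p under 0.05 (-0.29). The count at an adjusted p under 0.05 became 5 without non-treated replicate 1. The 2 non-targeting siRNAs differed from each other in Cers2 and Ugcg, 2 of the 8, where 21.0% of all genes did. Cers2 was lower (-0.85, SE 0.12, adjusted p = 0.000747) and Ugcg higher (0.95, SE 0.14, adjusted p = 0.00117) in NC siRNA #2 than in NC siRNA #1, and Gal3st1 was -0.81 (95% interval -1.41 to -0.22, adjusted p = 0.0557). The difference of Ugcg between the NC siRNAs was larger than that between siSbp2l and the mean of the controls (0.95 against 0.48), and so was that of Cers2 (-0.85 against -0.75).

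Both NC siRNAs together differed from the cells without siRNA (non-treated and mock) in 4 of the 8 genes, where 28.1% of all genes did. That count was 8 without non-treated replicate 1 and 2 without mock replicate 1. Cers2 (0.53, adjusted p = 0.00139) and Sptlc2 (0.40, adjusted p = 0.0116) were higher with siRNA, and Degs1 (-0.38, adjusted p = 0.00968) and Ugcg (-0.38, adjusted p = 0.0205) were lower. Ugt8a (-0.19, 95% interval -0.48 to 0.10) and Gal3st1 (0.28, 95% interval -0.14 to 0.70) did not pass. For Fa2h the value was 0.26 (adjusted p = 0.0998), against -2.20 in siSbp2l.

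Ratios between enzymes were compared within each library, since a ratio within a library hardly depends on its scaling. Each is log2 of the FPKM + 1 of a gene over that of another, and the 2 libraries of a knockdown were set against the 8 control libraries by an exact two-sided permutation test. The test treats the 8 control libraries as interchangeable, but they are pairs from 4 groups that differed, so its p-values may be too small. The smallest p that this design allows is 0.0444, and over the 14 tests made (7 ratios, 2 knockdowns) no adjusted p was under 0.124, so no ratio passed the correction. The ratio of Ugt8a to Ugcg sets the galactose branch against the glucose branch. It was 0.87 and 0.98 at Day0, 4.26 and 4.46 in non-treated, 4.26 and 4.25 in mock, 5.02 and 4.87 in NC siRNA #1, 4.09 and 3.98 in NC siRNA #2, 2.94 and 2.95 in siSbp2l, and 3.33 and 3.22 in siPdgfra. Both knockdowns lay below all controls, by 1.45 in siSbp2l (a 2.74-fold lower ratio, exact permutation p = 0.0444) and by 1.12 in siPdgfra (2.18-fold, exact permutation p = 0.0444), and above Day0.

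The ratio of Fa2h to Ugt8a, hydroxylase over galactosyltransferase, was -3.76 and -3.60 in siSbp2l and between -3.42 and -2.07 in the controls, a difference of -1.22 (exact permutation p = 0.0444). In siPdgfra it was -2.39 and -2.40, a difference of 0.06 (exact permutation p = 0.978). Non-treated replicate 2 (-3.42) was the control nearest to siSbp2l, and the other 7 were at -2.51 or above. With a pseudocount of 5 that library overlapped siSbp2l (-0.95, exact permutation p = 0.0889). The ratio of Fa2h to Degs1 was likewise below all controls in siSbp2l (-2.13 and -2.04, against -1.86 to -0.68) and within or just above them in siPdgfra (-0.73 and -0.66). The ratio of Gal3st1 to Ugt8a, sulfatide synthesis over its substrate, was -2.81 and -2.95 in siSbp2l, inside the range of the controls (-4.26 to -1.97), and -1.950 and -1.999 in siPdgfra, at its upper end (exact permutation p = 0.0889).

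Among the ceramide synthases, Cers5 (listed as Lass5) was set against Cers2, because it makes shorter chains. The ratio of Cers2 to Cers5 was 1.67 and 1.77 in siSbp2l and 2.22 to 3.30 in the controls, a difference of -0.96 (exact permutation p = 0.0444), and 1.76 and 1.57 at Day0. In siPdgfra it was 2.47 and 2.30, inside the range of the controls. The ratio of Cers2 to Cers6 (listed as Lass6) overlapped the controls in both knockdowns, but Cers6 was at 0.454 to 1.82 FPKM, near the added 1, and with a pseudocount of 5 the siSbp2l libraries lay below all controls (-0.60, exact permutation p = 0.0444). The 2 subunits of serine palmitoyltransferase kept a ratio within the controls in both knockdowns.

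**Figure D4:**
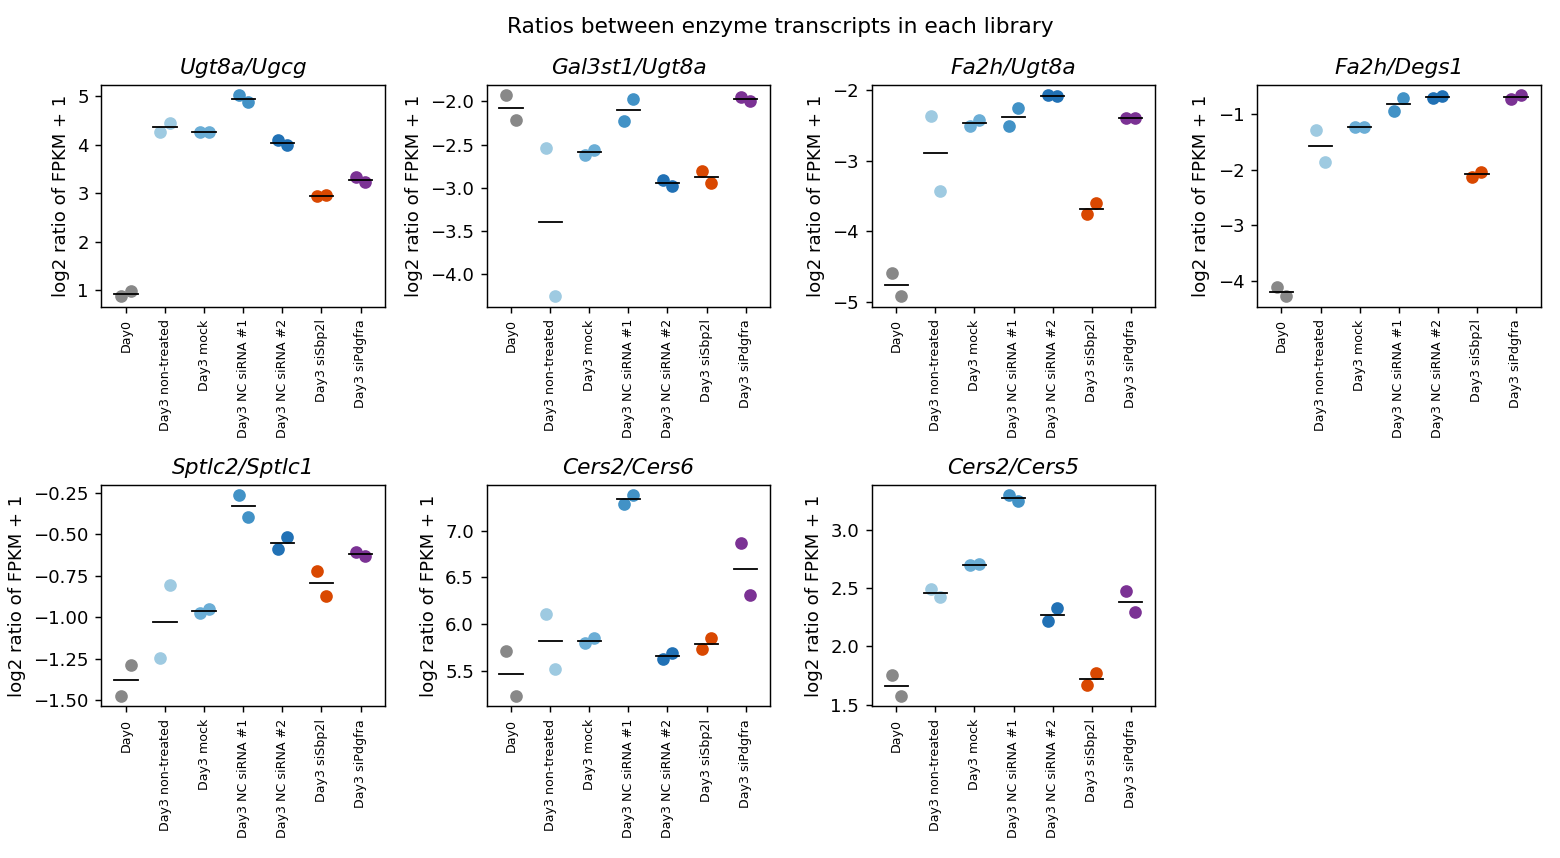
Log2 ratios of FPKM + 1 between the genes named above each panel (vertical axes) in the 14 libraries by group (horizontal axes). Points are libraries and lines group means. For Ugt8a/Ugcg both knockdowns lie between Day0 and the controls, and for Fa2h/Ugt8a siSbp2l does and siPdgfra does not.

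The rest of sphingolipid metabolism was followed with 8 lists of 56 genes that hold no member, of which 48 could be tested. Of these 48, 16 were higher and 11 lower in Day3 non-treated than at Day0, with a median of 0.16, where 28.4% of all genes were higher and 38.6% lower. In siSbp2l, 10 were higher and 13 lower (median 0.03, all genes 0.15), where 35.5% of all genes were higher and 17.9% lower. In siPdgfra 14 were higher and 14 lower (median 0.01, all genes 0.09), where 32.4% of all genes were higher and 23.0% lower. The 8 members had a median of -0.86 in siSbp2l and -0.41 in siPdgfra. The comparisons of the knockdowns share their controls.

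Steps before ceramide moved in both directions. Of 5 tested genes of the first steps, Kdsr, the reductase after serine palmitoyltransferase, was higher at Day3 (0.84, adjusted p = 4.98e-05) and lower in siSbp2l (-0.43, adjusted p = 0.00261). Its FPKM was 4.59 and 5.62 in siSbp2l, 4.52 and 4.33 in NC siRNA #1 and 7.62 to 10.1 in the other controls, so both siSbp2l libraries lay above that control and below the other 3. Ormdl2, a regulator of the same enzyme, was also lower in siSbp2l (-0.38, adjusted p = 0.00678). In siPdgfra, its relative Ormdl1 fell to 5.62 and 5.07 FPKM from 13.7 to 22.8 in the controls (-1.43, adjusted p = 9.09e-06), Sptssa, a small activating subunit, was lower (-0.61, adjusted p = 0.000178) and Ormdl2 was higher (0.52, adjusted p = 0.00106). Among 5 tested genes of the other ceramide synthases and the second desaturase, Degs2 was lower at Day3 (-0.79, adjusted p = 0.00213) and higher in both siSbp2l (0.60, adjusted p = 0.0049) and siPdgfra (0.70, adjusted p = 0.00204), though it was at no more than 3.20 FPKM in any library. Cers5 fell by 0.40 at Day3 and was higher in siSbp2l (0.21, adjusted p = 0.0374) and siPdgfra (0.50, adjusted p = 0.000302), and Cers6 was lower in siSbp2l (-0.38, adjusted p = 0.0215). For Cers6, however, both siSbp2l libraries (0.6025 and 0.6919 FPKM) lay above those of NC siRNA #1 (0.5937 and 0.454). Cers5 in siSbp2l (25.7 and 27.6 FPKM) overlapped NC siRNA #2 (28.75 and 26.0).

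The branches that leave ceramide come next. Of 7 ganglioside genes, 4 were lower at Day3 and none was higher, where 38.6% of all genes were lower. In siSbp2l, 4 were higher and none was lower, where 35.5% of all genes were higher. In siPdgfra 6 were higher and none was lower, where 32.4% of all genes were higher. The medians of the list in the knockdowns were 0.35 and 0.81. B4galt5, which makes lactosylceramide, stood at 34.3 and 35.3 FPKM in siSbp2l, 26.6 and 23.7 in siPdgfra, 6.72 to 20.9 in the controls and 13.6 and 11.8 at Day0, so that both knockdowns were above the controls (1.49, adjusted p = 1.33e-06 and 1.03, adjusted p = 1.35e-05). St8sia1, which makes the ganglioside GD3, stood at 8.42 and 8.50 FPKM at Day0, 2.49 to 4.27 in the controls, 5.72 and 5.80 in siSbp2l and 10.4 and 9.70 in siPdgfra. St3gal5, the synthase of GM3, was higher in siPdgfra (1.44, adjusted p = 3.71e-06), and St3gal2 was higher in siSbp2l (0.76, adjusted p = 0.00014).

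Of 7 sphingomyelin genes, Sgms2, a sphingomyelin synthase, moved most at Day3 and in siSbp2l, and Smpd3 moved most in siPdgfra. The FPKM of Sgms2 was 0.186 and 0.161 at Day0, 17.6 to 26.8 in the controls, 3.70 and 4.04 in siSbp2l and 11.90 and 12.02 in siPdgfra. Sgms2 rose by 4.15 at Day3 (adjusted p = 1.48e-10) and was lower in siSbp2l (-2.17, adjusted p = 1.3e-07) and in siPdgfra (-0.76, adjusted p = 7.88e-05). Smpd3, a neutral sphingomyelinase, was lower at Day3 (-1.13, adjusted p = 3.67e-05) and higher in siSbp2l (0.39, adjusted p = 0.0205) and siPdgfra (0.97, adjusted p = 9.89e-05). Samd8 was lower in siPdgfra (-0.64, adjusted p = 0.00346), and Smpd4 fell by 0.99 at Day3.

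Transfer, breakdown and donor supply were mixed. Gltp, a glycolipid transfer protein, rose by 2.98 at Day3 (adjusted p = 2.98e-08) and was lower in siSbp2l (-0.50, adjusted p = 0.0106), but its 292 and 313 FPKM there were above the 271 and 251 of NC siRNA #2. Col4a3bp, the ceramide transfer protein CERT, rose by 0.97 at Day3 and was lower in siPdgfra (-0.66, adjusted p = 0.00124), while in siSbp2l it was higher (0.32, adjusted p = 0.0493). Plekha8 was higher in siSbp2l (0.42, adjusted p = 0.00619), but its 6.40 and 7.80 FPKM there overlapped NC siRNA #1 (7.62 and 6.88). Gltpd1, a transfer protein for ceramide phosphate, fell by 0.56 at Day3.

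Of 12 tested genes for the breakdown of galactolipids and ceramide, 7 were higher and 1 lower at Day3, where 28.4% of all genes were higher and 38.6% lower. In siSbp2l, 5 were lower (17.9% of all genes), and in siPdgfra 3 were higher (32.4%) and 5 lower (23.0%). Arsa, which removes the sulfate that Gal3st1 adds, was at 2.03 and 1.74 FPKM at Day0, 7.46 to 12.7 in the controls, 3.28 and 2.93 in siSbp2l and 7.46 and 6.22 in siPdgfra, and was lower in siSbp2l (-1.51, adjusted p = 1.07e-05). Psap, the precursor of the saposins that present these lipids to their hydrolases, was lower in siPdgfra (182 and 178 FPKM, against 424 to 628 in the controls; -1.61, adjusted p = 4.65e-06), and less so in siSbp2l (-0.34, adjusted p = 0.0419). Acer3 was higher at Day3 (1.44, adjusted p = 3.26e-06). Asah1 was lower in siSbp2l (-0.32, adjusted p = 0.0196) and in siPdgfra (-0.95, adjusted p = 3.03e-05), and Asah2 was higher in siPdgfra (1.55, adjusted p = 9.2e-07).

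Of 3 tested genes of sphingosine phosphate metabolism, Sgpl1, the lyase that ends the pathway, was higher at Day3 (0.40, adjusted p = 0.000756) and in siSbp2l (0.65, adjusted p = 2.43e-05) but lower in siPdgfra (-1.06, adjusted p = 1e-06). Sgpp1 was lower in siPdgfra (-0.85, adjusted p = 5.66e-05) and Sphk2 higher (0.78, adjusted p = 0.00222). Of 5 tested genes for sugar and sulfate donors, Slc35a2, which carries UDP-galactose into the Golgi, and Slc35b2, which carries the sulfate donor, rose at Day3 (1.02, adjusted p = 0.000957 and 0.79, adjusted p = 0.00443) and were lower in siSbp2l (-0.46, adjusted p = 0.0426 and -0.61, adjusted p = 0.00735). Ugp2, which makes UDP-glucose, was lower in siSbp2l (-0.70, adjusted p = 0.0023). In siPdgfra, Slc35b2 (-0.59, adjusted p = 0.00869) and Papss1, which makes the sulfate donor (-0.29, adjusted p = 0.0277), were lower, where Papss1 had risen by 0.67 at Day3 (adjusted p = 0.000283).

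**Figure D5:**
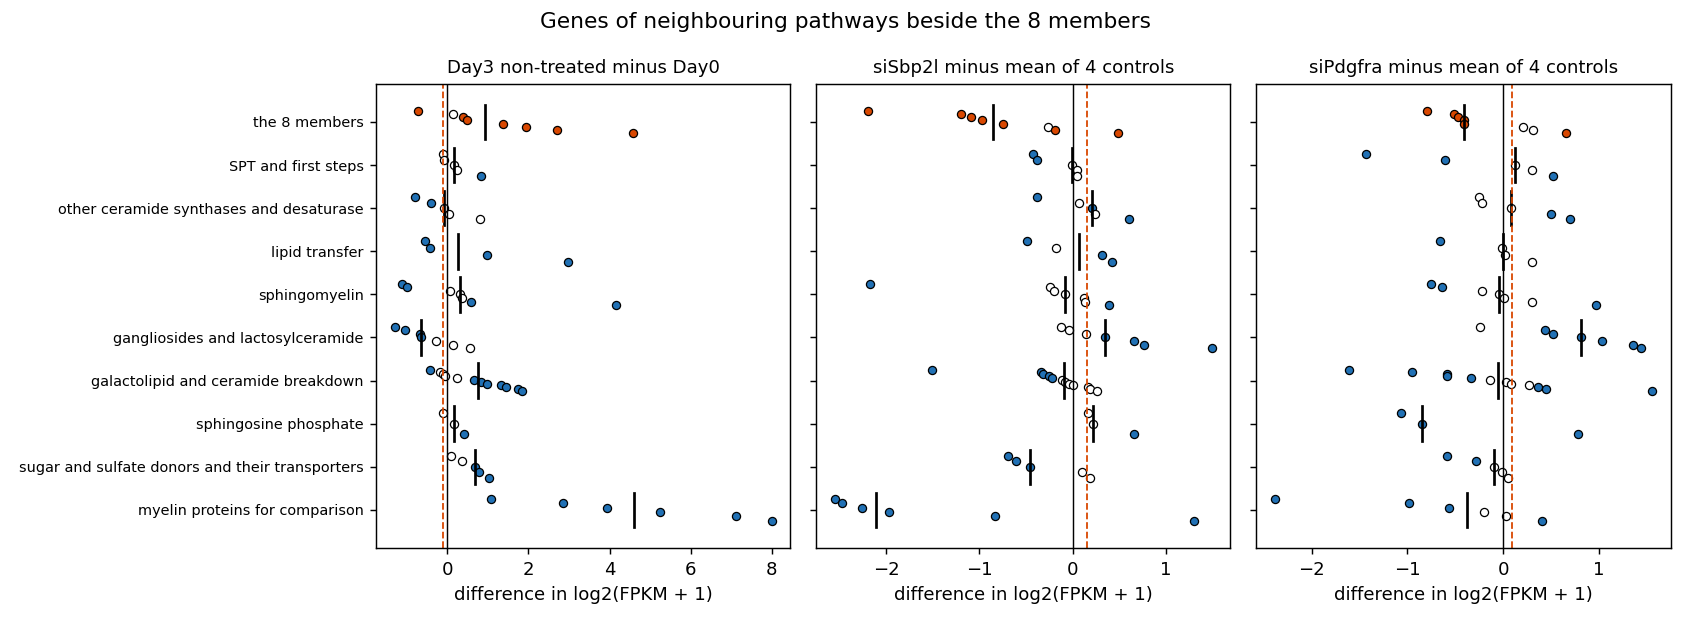
Differences in log2(FPKM + 1) (horizontal axes) of the 8 members and of genes in 9 lists (rows), in 3 comparisons. Each point is a gene, filled at an adjusted p under 0.05. Short lines are list medians and the dashed line is the median of all genes. In siSbp2l the members (median -0.86) and the myelin proteins (median -2.11) lie to the left, and the ganglioside genes (median 0.35) to the right.

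For comparison, 6 myelin proteins all rose at Day3 (median 4.59), and in siSbp2l 5 were lower and 1 higher, with a median of -2.11. The exception was Mal, a raft protein of myelin (1.29, adjusted p = 6.74e-05). Mog was lower (-2.55, adjusted p = 6.94e-08), as were Mag (-2.48, adjusted p = 2.25e-06) and Mobp (-2.26, adjusted p = 2.18e-07). Of the 8 lipid genes only Fa2h had a difference of that size from the mean of the controls. The controls themselves differed widely in Mog and Mobp. Mog was at 3.73 and 3.94 FPKM in siSbp2l, 5.23 and 5.45 in NC siRNA #2 and 64.4 and 67.2 in NC siRNA #1. Mobp was at 3.83 and 3.52, 5.05 and 5.93, and 103.0 and 100.6 in that order. Mag was at 51.0 and 60.4 FPKM in siSbp2l and 134.7 and 137.4 in NC siRNA #2. The size of these falls beside that of Fa2h therefore depends on the control. In siPdgfra the myelin proteins had a median of -0.38 (3 lower and 1, Mog, higher), with Mag (-2.38), Mobp (-0.98) and Cnp (-0.57) as the largest falls. Mog was at 39.6 and 33.35 FPKM in siPdgfra, which overlapped non-treated and mock (34.95 to 41.92). It was below NC siRNA #1 (64.4 and 67.2) and clearly above NC siRNA #2 alone (5.23 and 5.45). At Day3 non-treated, the largest rises were those of Mag (7.99), Mbp (7.12) and Mog (5.24).

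The patterns of the 8 genes over the 14 libraries were compared by the Pearson correlation of log2(FPKM + 1), given as a description because libraries of a group share their treatment. Fa2h and Ugt8a were most alike (r = 0.95), then Degs1 and Ugt8a (0.92), Degs1 and Fa2h (0.87), Cers2 and Gal3st1 (0.86) and Fa2h and Gal3st1 (0.86). Ugcg had a negative r with 6 of the other members (-0.74 to -0.58) and one near 0 with Sptlc1 (-0.05). The highest r of Sptlc1 was 0.40, with Degs1. Among the 11874 genes tested, the 3 outside the set whose pattern was most like that of Fa2h were Inpp4a (0.99), Gnao1 (0.99) and Sirt2 (0.99), and those for Ugt8a were Aldh6a1 (0.99), Fmnl2 (0.99) and Stxbp3a (0.99). For Degs1 they were Mx2 (0.98), Ptprr (0.97) and Ghitm (0.97), and for Cers2 they were St3gal4 (0.98), Crtac1 (0.95) and Adra1b (0.94). For Gal3st1 they were Tmem38a (0.97), Hid1 (0.96) and Tmc6 (0.96), and for Ugcg they were Ola1 (0.97), Rnf2 (0.96) and Galnt1 (0.94). For Sptlc1 they were Ufsp2 (0.95), Cxcr7 (0.94) and Slc1a3 (0.93), and for Sptlc2 they were Rps6ka5 (0.96), Atl3 (0.95) and Ddhd2 (0.94).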

How the data were processed

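The deposited table, although presented as counts, holds FPKM per gene: the authors mapped stranded poly(A) libraries to mm10 with refGene models in OmicSoft ArrayStudio and normalised fragments by gene length and depth. The steps between FPKM values of low genes returned whole fragments for 88.8% to 92.5% of values, which gave the depths printed here. All 14 columns matched a sample by name, and 0 columns were left out. Differences were fitted on log2(FPKM + 1) with limma 3.58.1 in R 4.3.3 (trended, robust moderation), over genes with FPKM of at least 1 in at least 2 libraries (11650 genes in 12 Day3 libraries, 11874 in 14), because FPKM does not suit a count model. Tests are two-sided and adjusted by Benjamini-Hochberg over all genes tested. A gene passed at an adjusted p under 0.05; 2-fold was added where stated. Ratios were tested with scipy 1.17.1. The fitting script was tested on simulated data. The members and lists were chosen with earlier results of these data known. Pathway genes named with values were up to 3 per list and comparison, those with the largest change among genes past the test. The nearest genes were the 3 with the highest Pearson r. Same-numbered replicates did not deviate together, so the main fit has no block. Results for 2 genes of these lists are not reported here, and the lists were counted without them.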

Additional observations from a re-analysis of the deposited data

How the results depend on the processing

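The 72 results for the 8 genes were recomputed 1104 times over 26 alternative settings (pseudocount, filter, scaling, moderation, GC trend, groups fitted, controls used and leaving out each library). Of these values, 1004 kept their side of the threshold, 14 of them with a change of sign in values past the test under neither setting, 55 lost the call, 45 gained it and 0 reversed a call. Fa2h, Degs1, Cers2, Ugt8a and Gal3st1 stayed lower in siSbp2l under all 21 alternatives run, at -2.37 to -1.91, -1.36 to -1.01, -1.01 to -0.65, -1.14 to -0.88 and -1.28 to -0.96. The number of the 8 genes past the test moved over 1.5 times for NC siRNA #2 against NC siRNA #1 (2, but 6 with only those groups fitted). With each library left out in turn it was 2 to 8 for both NC siRNAs against non-treated and mock, 0 to 5 for mock against non-treated, and 3 to 4 for siSbp2l against Day0. Causes were not tested. With the replicate number as a block, the counts were 7 of 8 for Day3 non-treated against Day0, 7 for siSbp2l and 6 for siPdgfra against the controls, as without the block, and the block changed no count in the other comparisons. Same-numbered libraries had correlated deviations of -0.38 to 0.21 over 15 pairs. Of 168 recomputed ratio values, 1 lost its side of the threshold and 1 gained it. With a library left out, too few libraries remained for the exact permutation test to reach the threshold, so no p was computed. Those runs are therefore no check of the ratio results. With 2 libraries per group, 6560804 fragments in the shallowest library, and 58 fragments for Fa2h at Day0, small differences and low levels are least certain.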
